A study of Mus musculus with 8 samples.

Results

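The 6 genes described here, mt-Cytb, mt-Co1, mt-Co2, mt-Co3, mt-Atp8 and mt-Atp6, are the mitochondrially encoded subunits of respiratory chain complexes III, IV and V. They were chosen by name, with the fall of mitochondrially encoded reads in the AP group already known. Their AP against VC values and their shares of the mitochondrial reads are therefore given as a description, with no test. They are 6 of the 13 mitochondrially encoded genes with values, and 6 of the 18770 genes with values in all. The other 7 mitochondrially encoded genes code for subunits of complex I.

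The libraries came from dorsal skin of male wildtype C57BL/6 mice (C57BL/6J in the study), aged 7 to 8 weeks, whose hair had been depilated. Mice of the AP group received alpinetin, a plant flavonoid, at 3 mg/ml in 65% ethanol, and mice of the VC group received 65% ethanol alone. In both groups 20 µl was applied to the skin once a day from 24 h after depilation, and skin was taken at D4 after depilation. By the study's methods, the tissue was dermis and its follicles, from which the keratinocytes of the epidermis between follicles had been taken off. Libraries were made from mRNA captured on oligo-dT beads, and 4 per group were sequenced. The study describes the sequenced samples as coming from separate mice, but the labels tie no library to a mouse, so p-values measure the spread between these samples.

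A VC library held 6454563 to 7264151 reads on the listed genes, and an AP library held 8507783 to 11190113. The 13 mitochondrially encoded genes took 54.3, 44.9, 42.1 and 52.3% of the reads from VC.1 to VC.4 against 11.1, 7.85, 5.32 and 10.3% from AP.1 to AP.4. Outside the mitochondrial genome this left 3080758 to 3762217 reads in a VC library and 7561598 to 10594787 in an AP library. Values below are normalized counts, which are reads divided by 1 size factor per library. The size factors do not make the mitochondrial shares alike, because they follow the typical gene.

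Several libraries stood apart in the markers of other tissues. The 13 skeletal muscle markers, led by Acta1, summed to 61908, 90383, 47880 and 48304 normalized counts from VC.1 to VC.4 against 89396, 11679, 6892 and 14507 from AP.1 to AP.4. AP.1 thus held as much muscle RNA as the VC libraries, and the other AP libraries held less. The 6 markers of suprabasal interfollicular epidermis, led by Krt10, summed to 3218, 9348, 5852 and 3804 in VC libraries against 32685, 34623, 89664 and 139614 in AP libraries. By the study's methods this layer had been removed from the tissue. The part of either tissue in the results on the 6 genes was not tested.

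Complex III passes electrons from ubiquinol to cytochrome c, complex IV passes them on to oxygen, and complex V uses the resulting proton gradient to make ATP. Each complex is built from subunits of both genomes: the mitochondrial genome supplies the membrane-embedded core, and the nuclear genome supplies the rest. Mitochondrial genes are transcribed as long precursors that are cut at the transfer RNAs between them, and most of the resulting mRNAs carry short poly(A) tails.

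The 6 genes took 32.5, 27.2, 26.0 and 31.5% of all reads from VC.1 to VC.4 against 6.70, 5.11, 3.26 and 6.32% from AP.1 to AP.4. The mean share in the VC group was 29.3% ± 3.17, that of the AP libraries 5.35% ± 1.55 (SD, n = 4 each). All AP libraries lay below all VC libraries in normalized counts for mt-Cytb, mt-Co1, mt-Co2, mt-Co3 and mt-Atp6, which 8.91% of the 15964 genes tested also showed. For mt-Atp8 the order of single libraries rested on too few reads to be established. The contrast was known when the genes were chosen, so nothing is read from that count. In these bulk libraries, fewer cells of a type and less RNA per cell cannot be told apart.

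mt-Cytb codes for cytochrome b, the subunit of complex III that holds the quinone sites and the only one made in the mitochondrion. It had 1398817, 858509, 730283 and 1144194 normalized counts from VC.1 to VC.4 against 128648, 89107, 58070 and 128148 from AP.1 to AP.4. The groups did not overlap: the highest AP value lay far below the lowest VC value, and AP.3 was the lowest library of all. The group means differed 10.2-fold, and the log2 difference was -3.38 ± 0.34 (SE from the spread within the groups, n = 4 each).

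mt-Co1 codes for the catalytic subunit of complex IV, where oxygen is reduced. It had 2888101, 1889856, 1564033 and 2661946 normalized counts from VC.1 to VC.4 against 284397, 209150, 123193 and 271604 from AP.1 to AP.4. As for mt-Cytb, VC.1 and VC.4 were the higher VC libraries, AP.1 and AP.4 were the higher AP libraries, and the groups did not overlap. The means differed 10.1-fold, with a log2 difference of -3.37 ± 0.35 (SE, n = 4 each).

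mt-Co2 codes for the complex IV subunit that takes up electrons from cytochrome c. Its values were 2077, 1290, 1294 and 1524 normalized counts from VC.1 to VC.4 against 243, 229, 116 and 251 from AP.1 to AP.4. The groups did not overlap, and AP.3 stood below the other AP libraries. The means differed 7.38-fold, with a log2 difference of -2.91 ± 0.31 (SE, n = 4 each).

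mt-Co3 codes for a core subunit of complex IV that carries no metal centre. Its values were 1677, 881, 762 and 1148 normalized counts from VC.1 to VC.4 against 138, 203, 65.8 and 175 from AP.1 to AP.4. The groups did not overlap here either, although AP.2, not AP.1 or AP.4, was the highest AP library. The means differed 7.67-fold, with a log2 difference of -2.98 ± 0.44 (SE, n = 4 each).

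mt-Atp6 codes for the complex V subunit that forms the proton path beside the rotor. It had 1153, 763, 789 and 1157 normalized counts from VC.1 to VC.4 against 160, 150, 81.2 and 171 from AP.1 to AP.4. VC.1 and VC.4 were again the higher VC libraries, AP.3 was the lowest, and the groups did not overlap. The means differed 6.87-fold, with a log2 difference of -2.80 ± 0.30 (SE, n = 4 each).

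mt-Atp8 codes for a small membrane subunit of complex V and was close to the limit of counting. It had 1, 7, 9 and 3 reads from VC.1 to VC.4 against 1, 0, 1 and 0 reads from AP.1 to AP.4. These reads correspond to 1.82, 10.3, 12.3 and 5.63 normalized counts for the VC libraries, against 0.73, 0, 0.50 and 0 for the AP libraries. A count of 0 allows up to 1.62 normalized counts in AP.2 and 2.15 in AP.4, taking 3 reads as the floor, so absence cannot be stated. Summed over the libraries, 20 reads in the VC group stood against 2 in the AP group. After division by the summed size factors the VC rate was 26.6 times the AP rate (95% exact conditional interval 6.47 to 235). This interval, like the floors, takes reads as independent molecules, which reads made by PCR are not. It also pools the libraries of a group and so leaves out the spread between them. The contrast was known when the gene was chosen, so the interval is not a test. mt-Atp8 was the member that did not pass the filter on low values, which the other 5 passed.

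**Figure D1:**
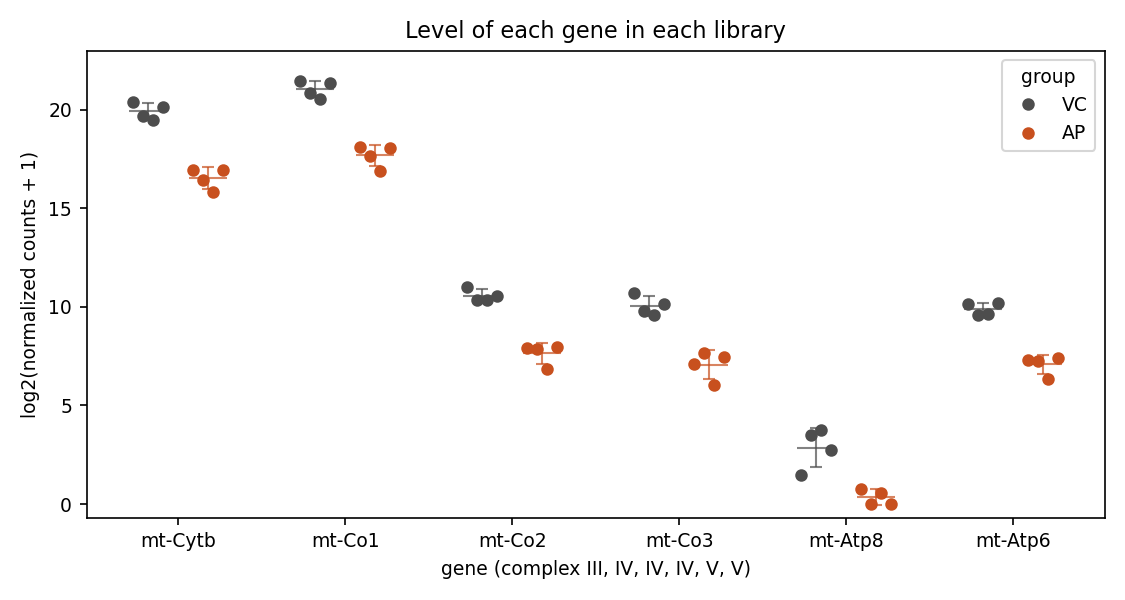
Level of each of the 6 genes in each library, as log2(normalized counts + 1), with 4 VC and 4 AP libraries per gene; the horizontal marks and bars are the group mean and SD. The AP libraries lie below the VC libraries, which for mt-Atp8 rests on a few reads, and mt-Cytb and mt-Co1 stand far above the other genes.

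Averaged over the 6 genes, the log2 difference was -2.99. Divided by the total reads of a library in place of the size factors, it was -2.20. That scaling moved the median of all genes tested from 0.06 to 0.90, so relative to the typical gene the 6 genes stood about as far apart as before.

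The 6 genes differed widely in level. Per length, mt-Co1 had 1456950 ± 405436 normalized counts per kilobase in the VC group (SD, n = 4) and mt-Cytb had 902929 ± 261397. mt-Co1 was above mt-Cytb in 4 of 4 VC and 4 of 4 AP libraries, by 1.61-fold and 1.63-fold of the means, although the ranges over the libraries of a group overlapped. mt-Co2 followed with 2261 ± 542, mt-Co3 with 1425 ± 519 and mt-Atp6 with 1418 ± 322 normalized counts per kilobase (SD, n = 4). mt-Co3 and mt-Atp6 did not differ beyond their spread: mt-Co3 was the higher in 2 of 4 VC libraries, and mt-Atp6 in 3 of 4 AP libraries. mt-Atp8 was last, with 36.9 ± 23.1 normalized counts per kilobase.

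In the VC group, mt-Co2 was thus 644-fold, mt-Co3 1023-fold and mt-Atp6 1028-fold below mt-Co1 per length. In the AP group these distances were 469-fold, 774-fold and 697-fold. The order of the genes was the same in both groups except that mt-Co3 and mt-Atp6 changed places. The 7 complex I genes showed the same division into abundant and rare genes: 5 of them lay 2.32-fold to 5.74-fold below mt-Co1 per length in the VC group, while mt-Nd3 lay 348-fold and mt-Nd4l 4285-fold below it.

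Within the mitochondrial reads, the share of the 6 genes together was 59.8, 60.6, 61.6 and 60.2% from VC.1 to VC.4 against 60.3, 65.1, 61.2 and 61.1% from AP.1 to AP.4. The groups overlapped, with means of 60.6% ± 0.790 (VC) against 61.9% ± 2.15 (AP, SD, n = 4), and AP.2 stood above the other 7 libraries. Without AP.2 the difference of the means went from 1.34 to 0.281 percentage points. So the mitochondrial total was divided between complex I and complexes III to V in nearly the same way in both groups, while the total itself differed.

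The share of mt-Co1 was 40.2, 41.6, 42.0 and 42.1% of the mitochondrial reads from VC.1 to VC.4 against 41.4, 45.5, 41.5 and 41.4% from AP.1 to AP.4. AP.2 alone lay outside the VC range, and without it the difference of the means went from 1.01 to -0.00817 percentage points. The share of mt-Cytb was 19.5, 18.9, 19.6 and 18.1% in the VC libraries, against 18.7, 19.4, 19.6 and 19.6% in the AP libraries, again with overlap. Its difference of 0.299 percentage points became -0.0129 without VC.4.

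The rarer genes took small shares. mt-Co2 held 0.0289, 0.0284, 0.0347 and 0.0241% of the mitochondrial reads from VC.1 to VC.4 against 0.0354, 0.0498, 0.0391 and 0.0383% from AP.1 to AP.4. mt-Atp6 held 0.0161, 0.0168, 0.0212 and 0.0183% in the VC libraries, against 0.0233, 0.0328, 0.0274 and 0.0261% in the AP libraries. For these 2 genes the AP shares all lay above the VC shares, so their difference between the groups was smaller than that of the mitochondrial total. Both genes share nearly all their sequence with nuclear copies, as described below, which makes these shares uncertain. The nearest libraries were within counting error of each other: the Wilson intervals were 0.0326 to 0.0370% in VC.3 and 0.0318 to 0.0394% in AP.1 for mt-Co2, and 0.0195 to 0.0230% and 0.0204 to 0.0265% for mt-Atp6.

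mt-Co3 held 0.0234, 0.0194, 0.0204 and 0.0181% from VC.1 to VC.4 against 0.0201, 0.0443, 0.0222 and 0.0267% from AP.1 to AP.4. Here the groups overlapped, and AP.2 stood above all other libraries. The share of mt-Atp8 rested on too few reads to compare: its 95% Wilson interval ran from 2.97e-05 to 9.52e-04% in AP.3. For the abundant genes counting error was small, as in the Wilson interval of mt-Co1 in AP.1, 41.3 to 41.5%.

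**Figure D2:**
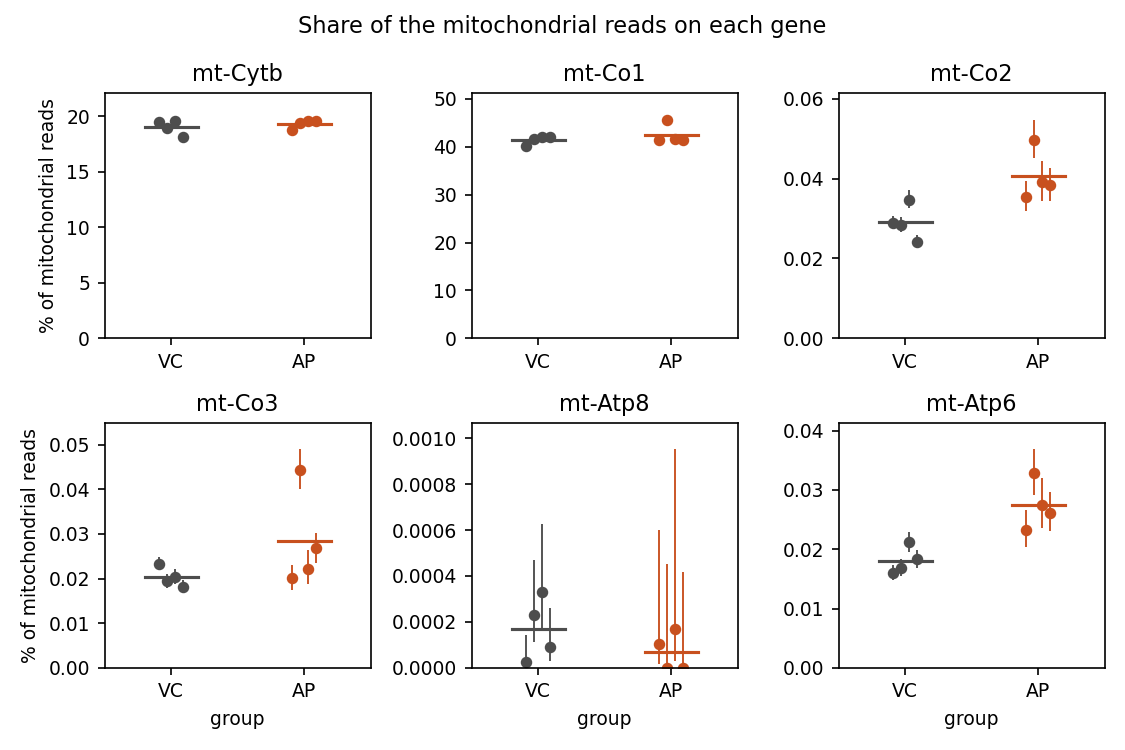
Share of the mitochondrial reads (%) on each of the 6 genes in each VC and AP library, with 95% Wilson intervals as vertical lines and the group mean as a horizontal line; each axis starts at 0. The shares of mt-Cytb and mt-Co1 overlap between the groups, and those of mt-Co2 and mt-Atp6 do not, although the intervals of VC.3 and AP.1 do.

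The distance between the abundant and the rare genes went along with a feature of their sequence. Parts of the mitochondrial genome have been copied into the nuclear genome, and a read that matches both places cannot be assigned to either by its bases alone. Each gene was cut into all its 50-base words, and these were looked for in the transcripts of every gene annotated outside the mitochondrial genome. mt-Cytb shared 0 of 1095 words. mt-Co1 shared 765 of 1496 words (51.1%), 430 of them with a copy of its 3′ part on chromosome 1.

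In contrast, mt-Co2 shared 635 of 635 words, mt-Co3 734 of 735 and mt-Atp6 629 of 632. With 100-base words these 3 genes still shared 99.5, 99.9 and 99.5%, and mt-Co1 shared 30.8%. mt-Nd3 and mt-Nd4l, the rare complex I genes, shared 98.0 and 98.8% of their 50-base words, and the 5 abundant complex I genes shared 0 to 62.2%. How reads with several matches were counted is not given in the sources used here, so the levels of mt-Co2, mt-Co3 and mt-Atp6 are uncertain. Their shares of the mitochondrial reads and their differences between the groups are uncertain too. The level of mt-Co1, and the distances to it, are uncertain for the same reason. Divided by unshared words alone, mt-Co1 had 3079320 normalized counts per 1000 words in the VC group, against 943334 for mt-Cytb. The part of the shared sequence in the low values of mt-Co2, mt-Co3 and mt-Atp6 was not tested.

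The shared words came mainly from a block of 7 pseudogenes on the minus strand of chromosome 1 (mm10), from 24611535 to 24616197, of which 4 are copies of genes described here. mt-Co2 (chrM:7013-7696) was identical to Gm28661 over 681 bases, mt-Atp6 (chrM:7927-8607) to Gm10925 over 678 bases and mt-Co3 (chrM:8607-9390) to Gm28437 over 783 bases, with 0 differences in each. None of these copies was among the genes with values. mt-Co1 (chrM:5328-6872) and Gm29216 were compared, without gaps, over the last 492 bases of the gene. They differed at 6 positions, T1056A, C1057T, A1059G, A1060G, C1062A and A1066T. Positions are counted from 1 at the 5′ end of mt-Co1, with its base given before the position. mt-Co1 also shared 411 words with Gm13340 on chromosome 2 and mt-Co2 224 with Gm13341 there.

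The start of the match between mt-Co1 (chrM:6381-6413, plus strand) and Gm29216 (chr1:24616165-24616197, minus strand) is given 5′ to 3′, because all 6 differences lie in it; differing bases are in capitals.
mt-Co1: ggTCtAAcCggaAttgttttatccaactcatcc
Gm29216: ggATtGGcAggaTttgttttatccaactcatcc

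mt-Atp8 (chrM:7766-7969) was the exception, being the rarest gene while it shared 0 of 155 words with annotated transcripts. It lies between mt-Co2 and mt-Atp6. The stretch between the ends of the compared parts of these genes is 233 bases long on the mitochondrial genome, and that between Gm28661 and Gm10925 on chromosome 1 is also 233 bases. No gene of the annotation covers the latter stretch, and its sequence was not read here.

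mt-Atp8 also overlaps mt-Atp6: the last 43 bases of mt-Atp8, 21.1% of its length, are the first 43 of mt-Atp6 in another reading frame, and both proteins are made from a single mRNA. Reads in the overlap belong to both genes. The overlap is shown with its flanks (chrM:7919-7977, plus strand, mm10), with the shared bases in capitals.
mt-Atp8 and mt-Atp6: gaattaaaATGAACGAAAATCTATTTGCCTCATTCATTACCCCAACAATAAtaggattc

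The end of mt-Atp6 meets mt-Co3 in 1 shared base at position 8607 of the mitochondrial genome, where the precursor is cut although no transfer RNA lies between these genes. The junction (chrM:8599-8615, plus strand) is shown with the shared base in capitals.
mt-Atp6 and mt-Co3: aatacataAtgacccac

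**Figure D3:**
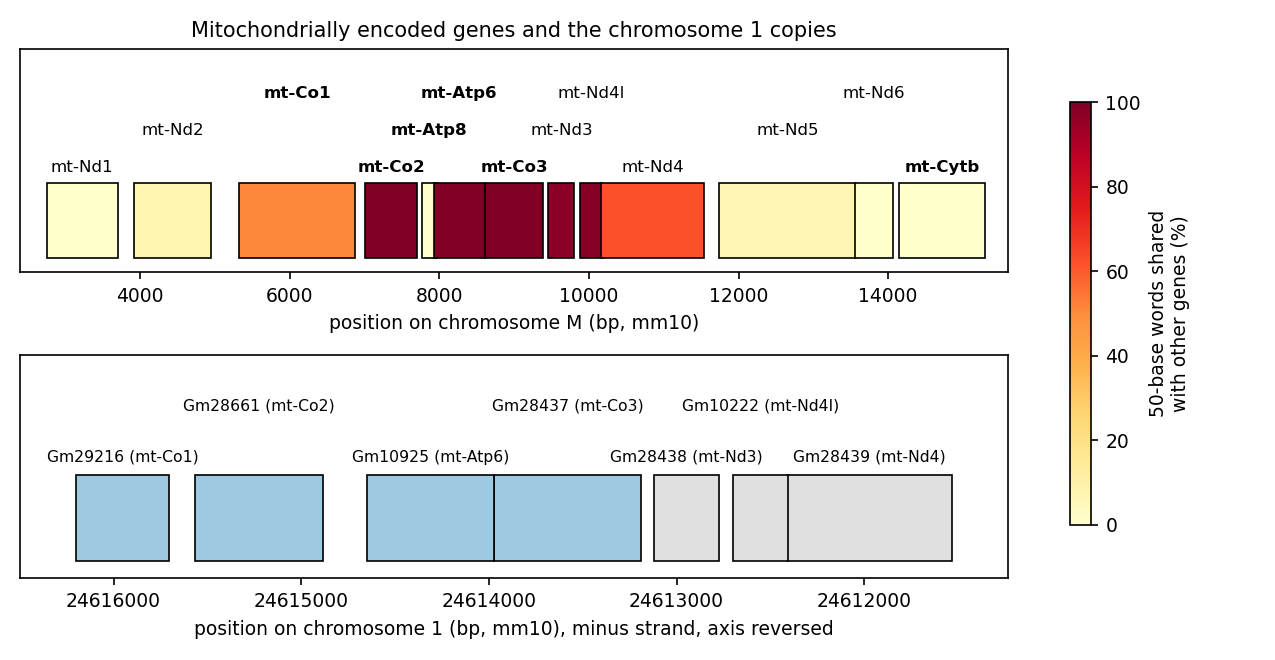
Map to scale of the 13 mitochondrially encoded genes on chromosome M (top, bp, mm10; the 6 genes in bold), coloured by the percent of their 50-base words found in other genes, and of the 7 pseudogenes on chromosome 1 (bottom, axis reversed; copies of the 6 genes in blue). mt-Co2, mt-Atp6 and mt-Co3 share 99.5 to 100% of their words, and mt-Atp8 and mt-Cytb share 0%.

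The 7 complex I genes, given side by side, had log2 differences of -3.33 (mt-Nd1), -3.54 (mt-Nd2), -3.18 (mt-Nd3), -3.50 (mt-Nd4), -3.64 (mt-Nd4l), -3.52 (mt-Nd5) and -3.39 (mt-Nd6). Those of mt-Cytb and mt-Co1 lay within this range, and those of mt-Co2, mt-Co3 and mt-Atp6 were smaller in size. The sequence shared with nuclear copies makes the latter uncertain, as it does those of mt-Nd3 and mt-Nd4l. mt-Atp8 cannot be placed among them, because its value depended on the number added before the logarithm: it was -3.16 with 0.5 added and -1.15 with 5 added. mt-Nd6, which is transcribed from the opposite strand to the other 12 genes, was not set apart from them.

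Among the libraries of a group, the 5 genes other than mt-Atp8 moved largely together. mt-Atp8, on its few reads, was lowest in VC.1 and highest in VC.3 within the VC group. In the AP group AP.3 was lowest for 5 of the 6 genes, and in the VC group VC.1 was highest for 4 of them. The highest VC library exceeded the lowest 1.92-fold for mt-Cytb, 1.85-fold for mt-Co1, 1.61-fold for mt-Co2 and 2.20-fold for mt-Co3. The corresponding ratio in the AP group was 2.22-fold, 2.31-fold, 2.16-fold and 3.09-fold.

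The nuclear-encoded partners of the 6 genes were not used to choose them and were tested, although the list of partners was itself drawn up with earlier results of these data known. Over all genes, limma called 1011 higher in the AP group (6.33% of the 15964 tested) and 639 lower (4.0%) at an adjusted p under 0.05. Of the 42 nuclear-encoded subunits of complexes III to V, 10 were lower and 0 were higher. At an unadjusted p under 0.05, 31 were lower and 0 higher, where 13.3% of all genes tested were lower and 17% higher. edgeR called 10, limma-voom 13 and DESeq2 18 lower, each with 0 higher. The median log2 fold change of the 42 genes was -0.50, against 0.06 for all genes tested, and 39 of the 42 were below 0. The parts of muscle content and of transcript length in this were not tested: the 13 muscle markers were all below 0, and the longest transcripts of the 42 genes had a median length of 896 bases, against 3171 for all genes tested. The median difference of the nuclear partners was far smaller than the mean of -2.99 for the 6 genes.

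In complex III, 2 of 9 nuclear-encoded subunits were lower. Uqcrh, the hinge protein that helps bind cytochrome c1 to cytochrome c, went from 2038 ± 487 to 1187 ± 165 normalized counts (SD, n = 4), a log2 fold change of -0.76 ± 0.19 (SE; limma adjusted p = 0.0308). The small subunit Uqcr10 had a log2 fold change of -0.70 ± 0.18 (SE; limma adjusted p = 0.0344). For both genes every AP library lay below every VC library. Uqcrq, the most abundant over the 8 libraries, though in neither group alone, was at -0.66 ± 0.22 (limma adjusted p = 0.0730).

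In complex IV, 4 of 16 were lower, all of them subunits around the mitochondrially encoded core. Cox7c fell by 0.88 on the log2 scale (SE 0.21; limma adjusted p = 0.0273) and Cox6c fell by 0.83 (SE 0.21; limma adjusted p = 0.0328). Cox5a, which with Cox4i1 is among the earliest subunits to join mt-Co1, had -0.68 ± 0.18 (limma adjusted p = 0.0386), and Cox8a had -0.55 ± 0.15 (limma adjusted p = 0.0450). With edgeR Cox8a was not called (edgeR adjusted p = 0.0547), so edgeR called a partly different set of subunits. Cox4i1, the most abundant, had 4358 ± 844 normalized counts in VC libraries, against 2869 ± 456 in AP libraries (SD, n = 4; log2 fold change -0.60, limma adjusted p = 0.0683).

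In complex V, 4 of 17 were lower. Atp5k and Atp5h sit near the membrane part that holds mt-Atp6 and mt-Atp8, with log2 fold changes of -1.02 ± 0.26 and -0.77 ± 0.19 (SE; limma adjusted p = 0.0348 and 0.0307). Atp5o, the hinge of the stalk, had -0.97 ± 0.25 (limma adjusted p = 0.0350), and Atp5g1, which codes for the rotor ring protein, had -0.65 ± 0.16 (limma adjusted p = 0.0315). Atp5b, the catalytic subunit and the most abundant, had 0.24 ± 0.19 (limma adjusted p = 0.426).

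The number of calls changed with the library that was left out, and the cause was not tested. Without AP.2, AP.3 or AP.4 none of the 42 subunits was called lower (0 in each case), 4 were without VC.1, 3 without VC.2, 7 without VC.3, 14 without VC.4 and 12 without AP.1. The fold changes kept their direction where the calls were lost: without AP.2, AP.3 and AP.4 they were -0.82, -0.75 and -0.87 for Cox6c and -0.67, -0.55 and -0.76 for Cox5a. Over all genes, the calls higher and lower went to 585 and 261 without VC.1, 398 and 155 without AP.2, 209 and 94 without AP.3, and 254 and 139 without AP.4. Scaled by total reads, 14 were called higher and 0 lower, with the median of all genes moved by 0.84 on the log2 scale.

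**Figure D4:**
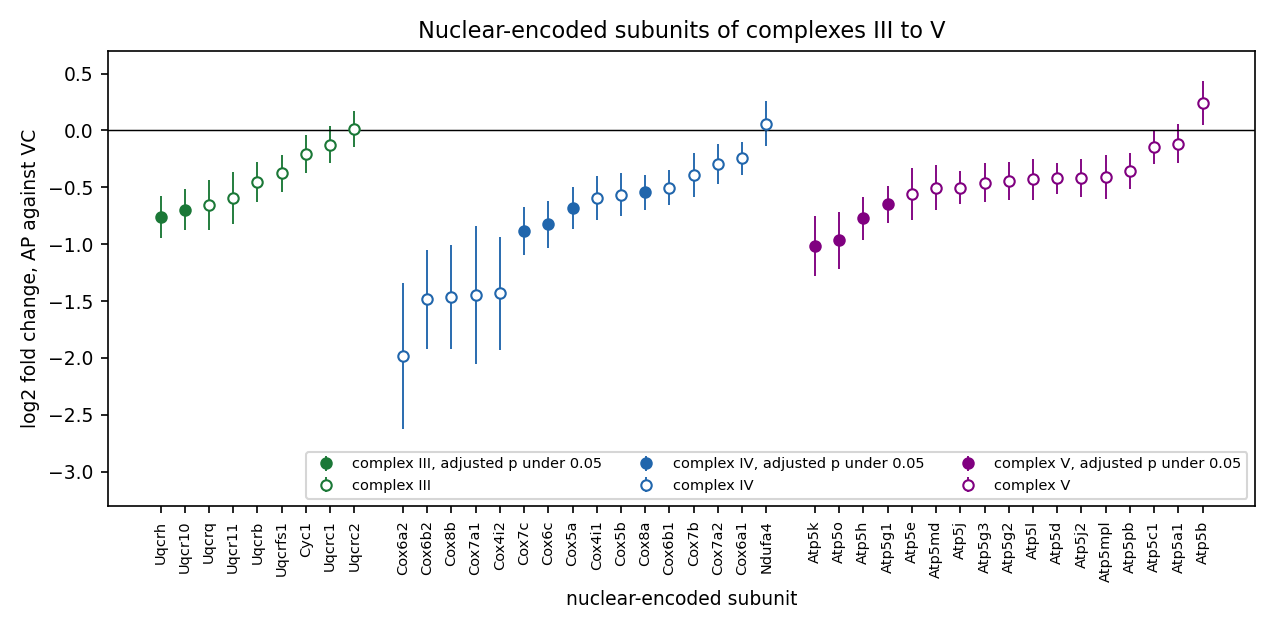
Log2 fold change (AP against VC, points, with the SE of the limma fit as bars) of the 42 nuclear-encoded subunits of complexes III, IV and V. Filled points have a limma adjusted p under 0.05. The 10 filled points lie below 0, and 39 of the 42 points do, with the size factors of the deposited values; scaled by total reads, 14 subunits were called higher and 0 lower.

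Complex IV has subunits with a muscle form, and in the AP group these were highest in AP.1, as the muscle markers were. The muscle forms Cox6a2, Cox7a1 and Cox8b were chosen for mention after their values were seen. Cox6a2 had 360, 497, 496 and 186 normalized counts from VC.1 to VC.4 against 412, 62.5, 28.9 and 85.8 from AP.1 to AP.4. Cox8b had 251, 364, 279 and 139 in the VC libraries, against 244, 75.5, 46.3 and 68.7 in the AP libraries. Cox7a1 had 83.7, 129, 135 and 30 in the VC libraries, with 92.1 in AP.1 and at most 25.3 in the other AP libraries. In the VC group VC.4 was the lowest library for all of these 3 genes. Its summed muscle markers were as high as those of VC.3, but single markers went both ways. Mb had 606 normalized counts in VC.4 and 1472 in VC.3, while Acta1 had 15782 and 12919. The limma adjusted p was 0.0678 for Cox6a2, 0.0610 for Cox8b and 0.135 for Cox7a1.

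Other nuclear genes on which the 6 genes depend were tested too. Of 29 assembly factors of complexes III to V, 3 were lower and 0 higher (4.0% of all genes were lower), 9 were lower and 0 higher at an unadjusted p under 0.05, and edgeR called 4, limma-voom 4 and DESeq2 5 lower. The 3 genes were Uqcc2, the most abundant, at -0.84 ± 0.21, and Uqcc3 at -0.84 ± 0.20, which serve the making and insertion of mt-Cytb, and Cox20, a chaperone of mt-Co2, at -0.87 ± 0.24 (log2 fold change ± SE; limma adjusted p = 0.0308, 0.0283 and 0.0418). Of 4 genes that maintain mitochondrial DNA, the single-strand binding protein Ssbp1 was lower (-0.98 ± 0.20, limma adjusted p = 0.0172), and Polg, the most abundant, had 0.07. Of 20 genes for mitochondrial transcription and RNA handling, limma called 0, with 1 lower at an unadjusted p under 0.05; DESeq2 called 1 lower, edgeR and limma-voom 0. Slirp, which stabilises mitochondrial mRNAs with Lrpprc, was the most abundant of these, at -0.43 ± 0.20 (limma adjusted p = 0.184).

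Of 5 regulators of mitochondrial biogenesis limma called 0, with 1 higher at an unadjusted p under 0.05; DESeq2 called 1 higher, edgeR and limma-voom 0. Gabpa, the most abundant, had -0.15 ± 0.15 (limma adjusted p = 0.531). Of the 5 genes of complex II and cytochrome c, limma called 0, with 1 lower at an unadjusted p under 0.05, and edgeR, DESeq2 and limma-voom called 0. Sdha, the most abundant, had 0.06 ± 0.15 (limma adjusted p = 0.818). Scaled by total reads, none of these lists had a gene called lower, and genes were called higher in each: 9 assembly factors, 12 genes for transcription and RNA handling, 2 for DNA maintenance, 4 regulators of biogenesis and 3 genes of complex II and cytochrome c.

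Among the markers of tissue makeup, limma called all of the 6 suprabasal markers higher, with Krt10 at 3.85 ± 0.50 (limma adjusted p = 0.00367), and 1 of 13 muscle markers lower, Tnnc2 at -2.05 ± 0.59 (limma adjusted p = 0.0497). All of the 13 muscle markers were below 0, with a median log2 fold change of -1.81, and 11 were lower at an unadjusted p under 0.05; limma-voom called 1 lower, edgeR and DESeq2 0. limma called 2 of 3 endothelial markers higher, Cdh5 at 1.75 and Pecam1 at 1.44, and 2 of 4 melanocyte markers lower, Tyr at -1.37 and Pmel at -1.35. For Tyr and Pmel, VC.4 lay within the range of the AP libraries. Tyr had 78.8 normalized counts in VC.4 against 47.9 to 96.7 in AP libraries, and Pmel had 366 against 265 to 520. Of 5 red blood cell markers, Hbb-bs was higher, at 1.24, while Hba-a2 went the other way, at -0.81 (limma adjusted p = 0.0901), and DESeq2 called 1 of the 5 lower. No call was made among 6 fibroblast, 6 follicle, 7 white adipocyte, 5 leukocyte markers and the 1 brown adipocyte marker with values (limma, 0 in each); at an unadjusted p under 0.05, 1 fibroblast, 2 adipocyte and 1 leukocyte marker were higher and 2 leukocyte markers lower, and DESeq2 called 1 leukocyte marker lower, edgeR and limma-voom 0. Col1a1, the most abundant fibroblast marker over the 8 libraries, though not in the VC group, had 36683 ± 21309 and 55218 ± 24981 normalized counts in VC and AP libraries (SD, n = 4). Krt14, the most abundant follicle marker, is also made in basal interfollicular epidermis. The follicle marker Lhx2 had 308 to 687 normalized counts over the VC libraries and 358 to 526 over the AP libraries. The part of these differences in the level of the 6 genes was not tested.

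The nuclear-encoded genes most like the 6 genes over the 8 libraries were Ankmy1, Gm1673, Mdk, Plekha4 and Mlana. Likeness was the root mean square distance of centred log2 levels from the mean profile of the 6 genes, taken over 11245 genes with a mean of at least 50 normalized counts. Ankmy1 had the smallest distance, 0.489, with 442, 248, 311 and 319 normalized counts from VC.1 to VC.4 against 77.6, 50.1, 66.8 and 74.4 from AP.1 to AP.4. The distances of the other 4 genes were 0.550 to 0.660. By the same measure mt-Co2 lay at 0.150, mt-Atp6 at 0.158, mt-Co1 at 0.259, mt-Cytb at 0.272, mt-Co3 at 0.333 and mt-Atp8 at 0.849. The 5 nuclear genes had log2 fold changes of -1.87 to -2.79. They were selected by a profile that is mostly the contrast of the groups, so this direction was set by the selection and no test is given.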

How the data were processed

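The authors aligned cleaned reads with STAR, on genome build mm10, and used DESeq2 for their own comparison of the groups. The submitters' processing notes name HTSeq for counting and the study's methods name featureCounts; versions are not given in the sources used here. The deposited signal values are read counts that the authors divided, in each library, by 1 size factor from DESeq2. The deposited table also holds the authors' own comparison (mean, fold change, its error, test statistic and p-values), which was not used.

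All 150160 values were whole multiples of 1 step per library (within 0.01 reads), so the reads could be recovered, and shares were computed from them. Columns are named by group and a number of their own and were assigned to groups only. Genes that reached 3 normalized counts in 4 or more of the 8 libraries were tested with limma 3.58.1 in R 4.3.3 (empirical Bayes moderation with an intensity trend) on log2(value + 1), with Benjamini-Hochberg adjustment over all genes tested. Fold changes on this scale understate those of low genes. The steps were tested on simulated data. edgeR 4.0.16, DESeq2 1.42.0 and limma-voom on the recovered reads, other scalings, pseudocounts and filters, and leaving out each library were alternatives. edgeR called 1003 genes higher and 712 lower.

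The members and the lists were chosen with earlier results of these data known. Named are the 6 genes, the 7 complex I genes, from each other list of mitochondrial genes up to 4 called genes with the largest change and the most abundant gene over all libraries, the 5 genes most alike, and nuclear copies. The muscle forms of complex IV subunits, Hba-a2 and Lhx2 were named outside this rule, after their values were seen, and marker genes are examples from their lists. 1 of the 30 assembly factors, Pet117, and 1 of the 2 brown adipocyte markers, Ucp1, had no value. Gene positions, lengths and sequences came from the GENCODE M21 annotation and transcripts, whose build is mm10; 18766 of 18770 identifiers matched. The genome sequence was not used.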

Additional observations from a re-analysis of the deposited data

Results flagged for a closer look

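In 9 of 68 groups of 4 libraries examined, 1 library lay far from the other 3 (its gap to the nearest over 0.83 of the range), which chance gives in about 1 of 20 groups. The share of mt-Co1 in the mitochondrial reads was 45.5% in AP.2, against 41.4 to 41.5% in the other AP libraries, and mt-Co2 was at 116 normalized counts in AP.3, against 229 to 251. VC.1 stood above the other VC libraries for Cox6c (4131 against 2230 to 2379 normalized counts), Cox7c (3061 against 1650 to 1843) and Atp5h (2576 against 1510 to 1591). Summed muscle markers were 89396 normalized counts in AP.1, against 6892 to 14507 in the other AP libraries. Endothelial markers were 3961 in AP.2, against 1434 to 1549. The brown adipocyte marker Cidea was 931 in VC.2, against 233 to 274, and 203 in AP.3, against 298 to 299.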

How the results depend on the processing

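No paired analysis was possible because the numbers in the labels are not shared between the groups, and the numbers of the columns differ from those in the labels in part. The listed mitochondrial genes are the 13 protein-coding ones, so a total that adds ribosomal and transfer RNA was not run.

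Scaled by total reads, 8670 genes were higher and 65 lower, 14 nuclear-encoded subunits were higher and 0 lower, and the mean log2 difference of the 6 genes was -2.20. With that scaling the values of Uqcrh (0.11), Uqcr10 (0.17), Cox5a (0.19), Cox6c (0.044), Cox8a (0.33), Atp5g1 (0.22) and Atp5h (0.097) turned positive; the median of all genes moved by 0.84, which is more than these genes had fallen. DESeq2 called 1677 genes higher, 1362 lower and 18 nuclear-encoded subunits lower; the cause was not tested. Of the calls, 61.3% were higher with the size factors, 49.9% with upper-quartile factors, 49.7% with limma-voom and 99.3% with total reads.

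Leaving out 1 library gave 209 to 1082 genes higher and 94 to 817 lower, and 0 to 14 nuclear-encoded subunits lower; the cause was not tested. The difference in share went from -0.0129 to 0.490 percentage points for mt-Cytb and from -0.00817 to 1.36 for mt-Co1. The mean log2 difference of the 6 genes went from -3.10 to -2.78, and the difference of their share of all reads from -25.1 to -22.9 percentage points. In the other 14 of 15 alternatives for that mean, it moved by less than the spread between libraries.

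Depth limits mt-Atp8 above all: 3 reads correspond to 4.10 to 5.63 normalized counts in the VC libraries and to 1.49 to 2.18 in the AP libraries.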

Other observations

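The order and spacing of the chromosome 1 copies followed the mitochondrial genome beyond the 6 genes. The gaps between the copies of mt-Co1 and mt-Co2 and between those of mt-Co3 and mt-Nd3 were 140 and 69 bases in both places, and that between the copies of mt-Nd3 and mt-Nd4l was 74 bases on chromosome 1 against 73 on the mitochondrial genome.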
